A study of Mus musculus with 23 samples.

Results

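The expression of 10 genes of the senescence and p53 pathways was followed in brain microglia of young and old mice, with and without repopulation of the microglia. The genes were Cdkn2a, Cdkn2c, Cdkn2d, Cdkn1a, Cdkn1b, Trp53, Mdm2, Ccng1, Rb1 and Lmnb1. They were taken by symbol from the 53090 genes of each deposited table, and were chosen with earlier results of these data known. Microglia are the resident macrophages of the brain and need the receptor CSF1R to survive. All mice were female C57BL/6, and the libraries fell into 4 groups: young (Y, n = 7), young repopulated (Y-re, n = 3), old (O, n = 5) and old repopulated (O-re, n = 8). For repopulation, microglia were first depleted with PLX5622, a CSF1R inhibitor mixed at 1200 ppm into AIN-76A chow, and control animals ate that chow without the drug. Neither the ages of the mice nor the length of the drug treatment and of the recovery is given in the sources used here. The protocols describe both cultured cells selected with CD11b beads and cells sorted by flow cytometry, and name the sorted cells as the source of RNA. The sources used here do not say that each library came from a separate animal, so p-values measure only the spread between these libraries, which may be technical.

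The libraries held 43.7 to 58.2 M expected counts (M for mega), and 16408 to 22237 genes had a count. Young replicate 3 had the fewest such genes. All 10 genes passed the filter on low counts and were tested with 18736 genes in all. The defining microglial markers were all present, with a summed level of 26110 to 31970 counts per M (CPM, scaled by TMM) in young, 23060 to 26800 in young repopulated, 10370 to 26580 in old and 9814 to 30010 in old repopulated libraries. The summed monocyte and neutrophil markers, all 10 of them with a count in each group, ranged from 31.9 to 288 CPM in young, 124 to 371 in young repopulated, 243 to 2168 in old and 145 to 2934 in old repopulated libraries. The summed border macrophage markers (8 of 8 with a count) ranged from 1012 to 1655, 1357 to 1588, 1205 to 1963 and 634 to 2847 CPM in the same order, and the lymphocyte markers summed to at most 2.03 CPM in any library. The sample titles number the libraries, and numbers 1 to 11 (10 libraries) and 12 to 24 (13 libraries) were also analysed apart. All 3 young repopulated libraries carry the numbers 22 to 24.

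Cells stop dividing through a pair of linked pathways. In the first, the INK4 proteins and the CIP/KIP proteins inhibit cyclin-dependent kinases, so that the retinoblastoma protein RB stays unphosphorylated and holds E2F factors inactive. In the second, DNA damage or oncogenic stress stabilizes p53, which switches on Cdkn1a, Ccng1 and its own antagonist Mdm2. The gene Cdkn2a feeds both: one of its transcripts encodes p16INK4a, a kinase inhibitor, and another, read in a different frame, encodes p19ARF, which blocks MDM2. Permanent arrest is called senescence, and high p16INK4a and p21 with loss of lamin B1 are widely used as its markers.

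Cdkn2a had the largest fold changes of the set wherever repopulated libraries were compared with young or old ones. It lies on the minus strand of chromosome 4 (chr4:89274471-89294653, GRCm38, GENCODE M21). Its 2 annotated transcripts start 12461 bases apart: Cdkn2a-202, with the ARF first exon of 320 bases (chr4:89294334-89294653), and Cdkn2a-201, with the INK4a first exon of 207 bases (chr4:89281986-89282192). The 200 bases from position -250 to -51 of each RefSeq start (build GRCm38.p6, minus strand, 5′ to 3′) are shown because the balance of the 2 transcripts differed between groups. Positions are counted from the RefSeq starts, and that of ARF lies a little downstream of the GENCODE start given above. The capitals mark the E2F-type motif TTTCCCGC.
ARF start, chr4:89294670-89294869: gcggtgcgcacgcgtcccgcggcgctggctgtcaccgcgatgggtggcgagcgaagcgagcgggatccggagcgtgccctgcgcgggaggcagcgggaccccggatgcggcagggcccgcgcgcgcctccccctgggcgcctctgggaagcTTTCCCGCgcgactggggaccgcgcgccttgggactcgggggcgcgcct
INK4a start, chr4:89282243-89282442: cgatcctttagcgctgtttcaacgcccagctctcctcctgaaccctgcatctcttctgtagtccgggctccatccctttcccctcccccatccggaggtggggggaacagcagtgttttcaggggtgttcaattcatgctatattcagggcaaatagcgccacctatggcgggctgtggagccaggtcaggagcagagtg
In the window of 300 bases around each start, the ARF promoter had a GC content of 77.0% with 45 CpG sites, and the INK4a promoter 60.3% with 12, where the median over all 32851 RefSeq promoters was 52.7% with 7. TTTCCCGC was searched on both strands and was found once in the ARF window, at position -99, and not in the INK4a window. It occurred in 351 of 32851 promoters (1.07%).

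Cdkn2a rose with repopulation at both ages and did not pass the test with age. In young libraries it measured 1.80 CPM at the lowest, 2.46 at the median and 3.44 at the highest. The 3 young repopulated libraries measured 8.22, 11.1 and 7.66 CPM, all above every young library. The old libraries measured 2.75, 4.25, 0.928, 2.24 and 2.17 CPM, a range that encloses the young one. The old repopulated libraries ran from 4.06 over a median of 6.81 to 9.08 CPM, and 7 of 8 lay above every old library. The exception was replicate 6 at 4.06 CPM, just below old replicate 2. These levels rest on 42 to 500 counts per library.

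In edgeR's quasi-likelihood test with Benjamini-Hochberg adjustment over all genes, the log2 fold change of Cdkn2a was 1.91 ± 0.30 (SE) in young repopulated versus young libraries (3.76-fold, adjusted p = 0.00218). It was 1.41 ± 0.28 (SE) in old repopulated versus old libraries (2.66-fold, adjusted p = 0.0306) and 1.46 ± 0.25 (SE) in old repopulated versus young libraries (2.75-fold, adjusted p = 0.00087). By comparison, the change in old versus young libraries was 0.05 ± 0.27 (SE, adjusted p = 0.967). The order of the means was young repopulated (8.997 ± 1.85 CPM, SD), old repopulated (6.57 ± 1.66), old (2.47 ± 1.20) and young (2.39 ± 0.58). The lower pair overlapped, as did the upper pair, where old repopulated versus young repopulated gave -0.45 ± 0.30 (SE, adjusted p = 0.537). The effect of repopulation in old minus that in young mice was -0.50 ± 0.41 (SE, adjusted p = 0.825). In bulk samples, a higher level per cell and more cells that hold the transcript cannot be told apart.

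Across all 18736 genes tested, few passed in the comparisons of repopulation: 0.278% in old repopulated versus old and 1.34% in young repopulated versus young. Cdkn2a was 1 of only 12 genes called higher in old repopulated than in old libraries (0.064%), and no other gene of the set passed there. The markers of microglia, of monocytes and neutrophils and of border macrophages had median log2 fold changes of -0.13, -0.30 and 0.36 in that comparison. The border macrophage sums differed between runs of library numbers, as given below. The part of these markers in the change of Cdkn2a was not tested. The call for old mice rested on single libraries: the adjusted p was 0.0658 without old replicate 1, 0.126 without old replicate 4, 0.119 without old replicate 5, 0.0544 without old repopulated replicate 4 and 0.0541 without old repopulated replicate 8, and 0.243 when only both groups compared were fitted. In that last fit 0 of the 16210 genes tested were called. The log2 fold change of Cdkn2a kept its sign throughout, between 1.20 and 1.70 when 1 library was left out. The calls of Cdkn2a in young repopulated versus young and in old repopulated versus young libraries held in each of the 23 fits that left out 1 library, with log2 fold changes of 1.77 to 2.02 and 1.38 to 1.57. Without young replicate 3 they were 1.92 (adjusted p = 0.00459) and 1.47 (adjusted p = 0.00117).

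**Figure D1:**
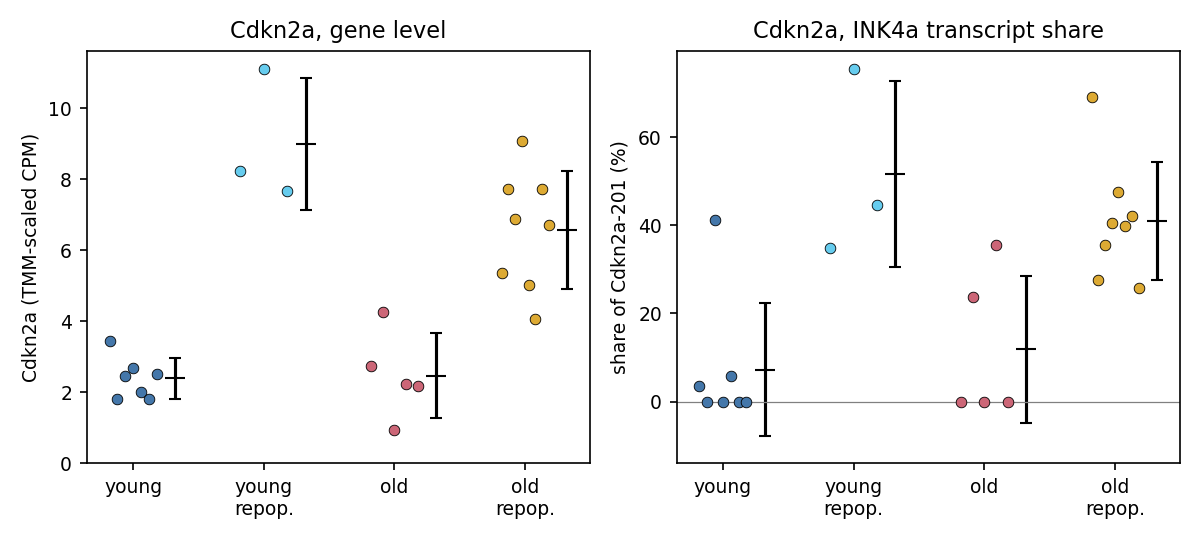
Cdkn2a in each library. Left, the gene's level in CPM (linear axis); right, the percentage of Cdkn2a transcripts assigned to the INK4a form; points are libraries, and bars give the mean ± SD of each group. All 3 young repopulated libraries lie above every young library on the left, and 4 young and 3 old libraries lie at 0% on the right.

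The deposited tables give each gene's length as an average over its transcripts, weighted by their estimated abundance. For a gene with 2 transcripts of known length, 852 bases for the INK4a form and 895 for the ARF form, that average fixes the share of each. This measure was chosen after the data were seen. The INK4a form was listed at 0% of Cdkn2a transcripts in 4 of 7 young libraries, and the others gave 3.61%, 5.72% and, in young replicate 3, 41.2%. Old libraries gave 0%, 23.7%, 0%, 35.5% and 0%. The young repopulated libraries gave 34.9%, 75.5% and 44.7%. All 8 old repopulated libraries held the INK4a form, from 25.7% over a median of 40.3% to 69.1%. Young replicate 3 and old replicate 4 were the only libraries without repopulation that lay within the range of the repopulated ones.

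Expressed per transcript, the INK4a form rose from a mean of 0.746 ± 1.03 (SD, n = 5) transcripts per M (TPM) in old to 5.09 ± 1.62 TPM (SD, n = 8) in the old repopulated libraries. The lowest old repopulated library (3.04 TPM) was above the highest old one (2.04 TPM). The difference of 4.34 TPM had a two-sided exact permutation p of 0.00155, the smallest that 8 against 5 libraries can give, and 0.00932 after adjustment over the 15 transcript comparisons. Against young libraries (0.331 ± 0.672 TPM, SD, n = 7) the difference was 4.76 TPM (exact permutation, adjusted p = 0.00466). In young repopulated libraries the INK4a form measured 5.55, 16.8 and 6.79 TPM, all above the highest young library at 1.83 TPM. That difference of 9.37 TPM reached the smallest exact permutation p that 3 against 7 libraries allow, 0.0167, and 0.05 after adjustment, which did not pass.

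The ARF form did not pass in any comparison over all libraries. Its mean was 4.45 ± 1.35 TPM (SD, n = 7) in the young, 8.07 ± 2.48 (SD, n = 3) in the young repopulated, 4.31 ± 1.91 (SD, n = 5) in the old and 7.67 ± 2.88 (SD, n = 8) in the old repopulated libraries. The differences had adjusted p-values by exact permutation of 0.0833 for old repopulated versus old, 0.0833 for young repopulated versus young and 0.0544 for old repopulated versus young libraries. Without old repopulated replicate 1 it passed against old (adjusted p = 0.0487 by exact permutation) and young libraries (0.0284), and against young ones also without replicate 5 or 6 (0.0417 each). The share of the INK4a form itself was 29.2 percentage points higher in old repopulated than in old libraries (exact permutation, adjusted p = 0.0233) and 33.8 points higher than in young ones (adjusted p = 0.00932). For young repopulated versus young libraries it was 44.5 points higher (exact permutation, adjusted p = 0.0714), with 2 of 3 libraries above every young one, and 50.1 points without young replicate 3 (adjusted p = 0.0595). Without old replicate 1, 3 or 5 the difference of shares in old mice was 26.2 points each time (exact permutation, adjusted p = 0.05). Only reads of 50 nt from a first exon, or from 70 bases that Cdkn2a-201 has at its 3′ end and Cdkn2a-202 lacks, can carry this distinction. How much each of these regions contributed was not measured. Shares from the libraries with the lowest counts are the least certain.

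**Figure D2:**
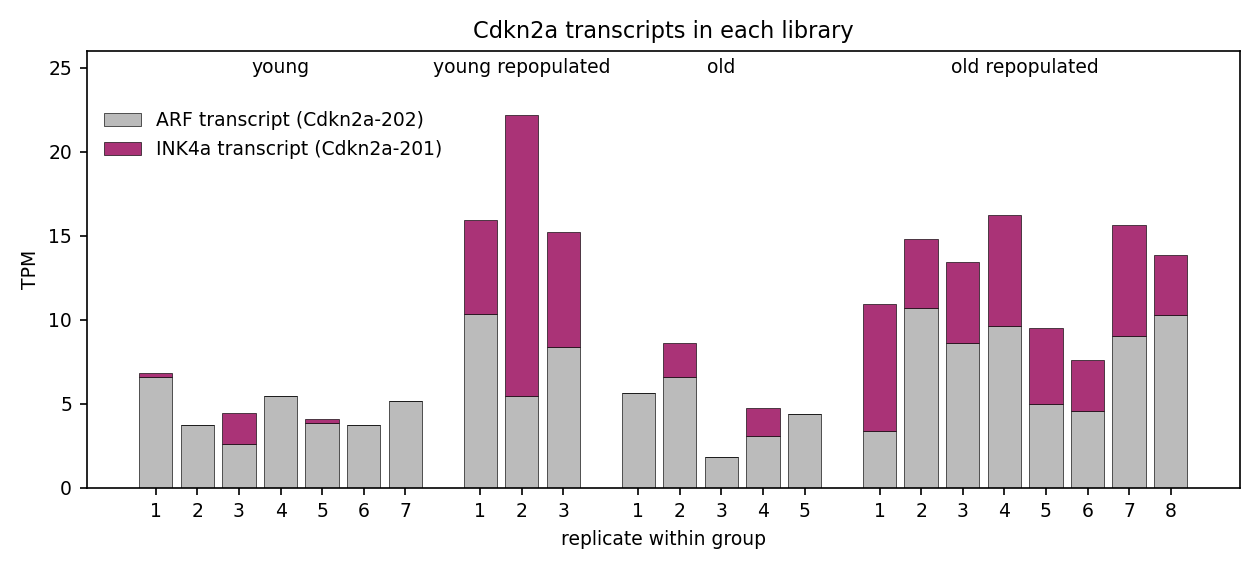
Estimated level of both Cdkn2a transcripts in each library, in TPM (linear axis from 0), with the ARF form below and the INK4a form stacked above it. Every repopulated library holds at least 3.04 TPM of the INK4a form, and the highest library without repopulation holds 2.04 TPM.

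The neighbouring INK4 gene Cdkn2b, which encodes p15INK4b and lies beside Cdkn2a, was near the limit of detection, and its group means followed the same order as those of Cdkn2a. It measured 0.404 ± 0.283 CPM (SD, n = 7) in the young, 1.35 ± 0.364 (SD, n = 3) in the young repopulated, 0.433 ± 0.247 (SD, n = 5) in the old and 0.936 ± 0.542 (SD, n = 8) in the old repopulated libraries. It did not pass in young repopulated versus young (log2 fold change 1.73 ± 0.73, SE, adjusted p = 0.259 in edgeR) or in old repopulated versus old libraries (1.11 ± 0.66, SE, adjusted p = 0.628 in edgeR). The group means of Mtap, the gene on the other side, ranged from 22.8 ± 2.33 CPM (SD, n = 5) in old to 29.3 ± 4.66 CPM (SD, n = 8) in the old repopulated libraries. The old libraries ran from 18.7 to 24.3 CPM and the old repopulated ones from 24.1 to 37.5 CPM, so they overlapped little. Mtap measured 25.3 ± 3.23 CPM (SD, n = 7) in young and 25.9 ± 3.42 CPM (SD, n = 3) in young repopulated libraries. No test of Mtap is given here.

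The other INK4 genes did not share the pattern. Cdkn2c, which encodes p18INK4c (chr4:109660876-109667189), measured 22.6 ± 5.14 CPM (SD, n = 7) in the young, 15.6 ± 2.25 (SD, n = 3) in the young repopulated, 18.4 ± 6.14 (SD, n = 5) in the old and 18.6 ± 5.00 (SD, n = 8) in the old repopulated libraries. The groups overlapped, and the log2 fold change was -0.54 ± 0.27 (SE, adjusted p = 0.352 in edgeR) in young repopulated versus young and 0.02 ± 0.22 (SE, adjusted p = 0.994 in edgeR) in old repopulated versus old libraries. Cdkn2d, which encodes p19INK4d and is distinct from p19ARF (chr9:21288410-21291407), measured 14.9 ± 2.26 CPM (SD, n = 7), 13.5 ± 0.938 (SD, n = 3), 18.8 ± 4.54 (SD, n = 5) and 21.6 ± 7.76 (SD, n = 8) in the same order. Its log2 fold change in old repopulated versus young libraries was 0.53 ± 0.19 (SE, adjusted p = 0.0632 in edgeR), which passed without old repopulated replicate 1 (adjusted p = 0.00835), replicate 2 (0.042) or replicate 4 (0.0459). In old repopulated versus young repopulated libraries Cdkn2d was 0.68 ± 0.26 (SE) higher on the log2 scale and did not pass (edgeR adjusted p = 0.395).

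Among the CIP/KIP inhibitors, Cdkn1a and Cdkn1b were higher in old repopulated than in young libraries and did not pass with repopulation in old mice. Cdkn1a encodes p21, the main p53-induced inhibitor of cyclin-dependent kinases, and was by TPM the highest of the 10 genes in every group, at 191 ± 38.1 TPM (SD, n = 7) in young libraries. On the CPM scale it ran from 137 over a median of 220 (219.6) to 248 in young libraries. The young repopulated libraries measured 239.9, 226 and 254 CPM, within or just above the young range. The old libraries measured 222, 293, 406, 292 and 406 CPM, of which 4 of 5 were above every young library. The old repopulated libraries ran from 193 over a median of 324 to 446 CPM, and 6 of 8 were above every young one. The log2 fold change was 0.62 ± 0.17 (SE, adjusted p = 0.0179 in edgeR) in old repopulated versus young and 0.67 ± 0.19 (SE, adjusted p = 0.0546 in edgeR) in old versus young libraries.

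The age difference of Cdkn1a thus lay at the threshold. It passed with DESeq2 (adjusted p = 0.017), with limma voom and sample quality weights (0.00163) and in edgeR with only both groups compared (0.0482). It also passed in edgeR without young replicate 3 (adjusted p = 0.046), old replicate 1 (0.0163) or old repopulated replicate 1 (0.0295), 2 (0.0359) or 6 (0.038). With repopulation it changed by -0.06 ± 0.19 (SE, adjusted p = 0.969 in edgeR) in old and 0.24 ± 0.22 (SE, adjusted p = 0.682 in edgeR) in young mice. Another gene, AC167363.2, overlaps Cdkn1a over 1046 bases on the opposite strand. Whether counting used strand is not stated in the sources used here.

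Cdkn1b, which encodes p27 (chr6:134920401-134925513), ran from 67.2 over a median of 77.6 to 86.2 CPM in young libraries. The young repopulated libraries measured 90.7, 114 and 99.2 CPM, above every young library. The old libraries measured 81.7, 102, 109.9, 79.8 and 97.2 CPM. The old repopulated libraries ran from 83.1 over 93.9 to 125 CPM, and 6 of 8 were above every young one. The gene passed in old repopulated versus young libraries (log2 fold change 0.32 ± 0.09, SE, adjusted p = 0.0205 in edgeR). In young repopulated versus young libraries the value was similar, 0.39 ± 0.12 (SE), and missed the threshold (edgeR adjusted p = 0.0983), while DESeq2 gave 0.0478. The third CIP/KIP gene, Cdkn1c, which encodes p57, moved the other way and at a low level, from 4.39 ± 1.59 CPM (SD, n = 7) in young to 1.61 ± 1.87 (SD, n = 8) in the old repopulated libraries (log2 fold change -1.44 ± 0.48, SE, adjusted p = 0.0454 in edgeR). Cdkn1c did not pass in 17 of the 23 fits that each left out 1 library, with log2 fold changes from -2.13 to -1.29.

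**Figure D3:**
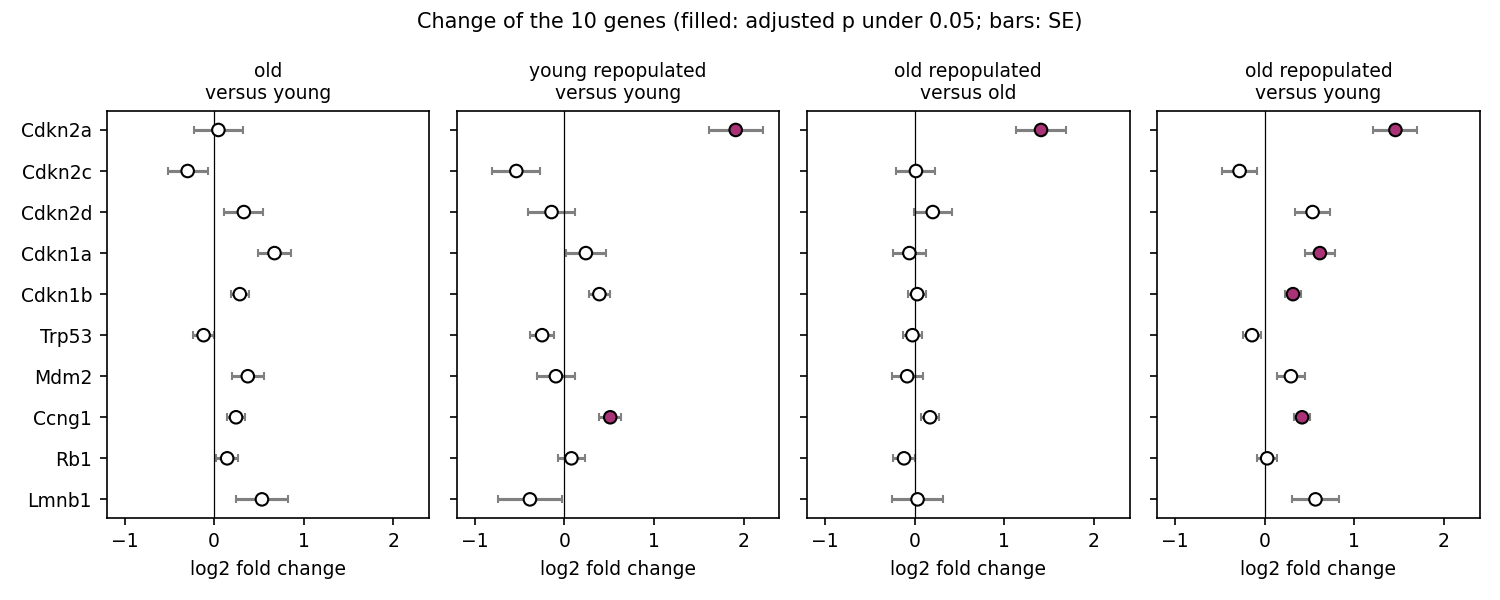
Log2 fold change of the 10 genes in 4 comparisons, with bars of 1 SE; filled points passed at an adjusted p under 0.05 in edgeR's quasi-likelihood test. Cdkn2a is filled in the 3 comparisons that involve repopulated libraries, and no gene is filled in old versus young.

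In the p53 branch, the target Ccng1 passed and Trp53 and Mdm2 did not. Trp53, which encodes p53 itself (chr11:69580359-69591873), measured 58.7 ± 9.20 CPM (SD, n = 7) in the young, 49.5 ± 1.55 (SD, n = 3) in the young repopulated, 54.1 ± 8.34 (SD, n = 5) in the old and 53.3 ± 6.66 (SD, n = 8) in the old repopulated libraries. Its largest log2 fold change among the comparisons with young or old libraries was -0.25 ± 0.14 (SE, adjusted p = 0.408 in edgeR), in young repopulated versus young. The activity of p53 is set mostly on the protein, which was not measured here.

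Ccng1 encodes cyclin G1, a p53 target that recruits a phosphatase to MDM2 (chr11:40748552-40755311, minus strand). Young libraries ran from 72.3 over a median of 92.5 to 102 CPM, with the lowest value in young replicate 3. The young repopulated libraries measured 119, 138 and 132 CPM, all above every young library. The old libraries measured 95.9, 109 (108.9), 111, 93.8 and 129 (128.5) CPM, and 3 of 5 were above every young one. The old repopulated libraries ran from 91.8 over a median of 119 to 152 CPM, and 7 of 8 were above every young one. The log2 fold change was 0.51 ± 0.12 (SE, adjusted p = 0.0384 in edgeR) in young repopulated versus young and 0.42 ± 0.09 (SE, adjusted p = 0.00546 in edgeR) in old repopulated versus young libraries.

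Within old mice the change of Ccng1 with repopulation was 0.17 ± 0.10 (SE, adjusted p = 0.63 in edgeR), and the change with age was 0.24 ± 0.11 (SE, adjusted p = 0.257 in edgeR). The effect of repopulation in old minus that in young mice was -0.34 ± 0.16 (SE, adjusted p = 0.596 in edgeR). The call in young mice was lost without any 1 of the young repopulated replicates 1, 2 and 3 (edgeR adjusted p = 0.109, 0.187 and 0.138) and without young replicate 1, 2, 4, 5 or 7 (0.0513 to 0.063). Without young replicate 3 it held, at 0.46 (adjusted p = 0.0454). The call in old repopulated versus young libraries held in each of the 23 fits that left out 1 library.

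Sequences that match the p53 consensus, a tandem of decamers, lay near the starts of Ccng1 and Cdkn1a, and are shown because both genes passed in old repopulated versus young libraries. The RefSeq windows of 300 bases (GRCm38.p6) were searched on both strands for the consensus without a spacer, allowing at most 1 mismatch, and the capitals mark the match.
Ccng1, chr11:40755442-40755501, minus strand: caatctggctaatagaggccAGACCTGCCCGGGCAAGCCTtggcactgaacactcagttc
Cdkn1a, chr17:29090908-29090967, plus strand: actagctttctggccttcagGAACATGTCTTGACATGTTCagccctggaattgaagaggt
The match begins at position -195 from the RefSeq start of Ccng1 and at position -51 from the upstream start of Cdkn1a. That upstream start lies 2790 bases before the start of the main Cdkn1a-201 transcript. Each has 1 mismatch, and such matches occurred in 29 of 32851 promoters (0.0883%), 3 of them with none. Of the 10 genes, 8 had RefSeq promoter entries, 11 in all, and no other entry held a match, including those of Cdkn2a, Cdkn2c, Cdkn2d, Cdkn1b, Mdm2 and Trp53. Lmnb1 and Rb1 were not searched. A match is a description of the letters and no evidence of binding.

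Mdm2, the ubiquitin ligase that degrades p53 and is itself a p53 target (chr10:117688875-117710758), did not pass in any of these comparisons. It ran from 77.7 to 90.9 CPM in young and measured 84.3, 73.6 and 76.9 CPM in young repopulated libraries. The old libraries measured 80.1, 90.8, 144, 100.9 and 126 CPM, and the old repopulated ones ran from 71.3 over 86.4 to 155 CPM. The log2 fold change was 0.37 ± 0.18 (SE, adjusted p = 0.312 in edgeR) in old versus young, 0.29 ± 0.16 (SE, adjusted p = 0.215) in old repopulated versus young and -0.08 ± 0.17 (SE, adjusted p = 0.946) in old repopulated versus old libraries. The high Mdm2 values were those of libraries 16, 18, 19, 20 and 21, all from old mice.

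Lmnb1, which encodes lamin B1 of the nuclear envelope, did not pass in any comparison over all libraries and varied widely among those from old mice. Young libraries ran from 65.2 over a median of 100.2 to 137 CPM, and the young repopulated ones measured 66.5, 82.1 and 78.0 CPM. The old libraries measured 71.0, 119.9, 228, 111.5 and 182 CPM, and the old repopulated ones ran from 66.3 over 126 to 257 CPM. The log2 fold change was 0.53 ± 0.29 (SE, adjusted p = 0.403 in edgeR) in old versus young, 0.03 ± 0.29 (SE, adjusted p = 0.992) in old repopulated versus old, -0.38 ± 0.35 (SE, adjusted p = 0.68) in young repopulated versus young and 0.95 ± 0.36 (SE, adjusted p = 0.393) in old repopulated versus young repopulated libraries. In old repopulated versus young libraries it was 0.57 ± 0.26 (SE, adjusted p = 0.145 in edgeR), and 0.70 without old repopulated replicate 1 (adjusted p = 0.0436).

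Rb1, which encodes RB, measured 81.7 ± 8.62 CPM (SD, n = 7) in the young, 86.3 ± 7.55 (SD, n = 3) in the young repopulated, 90.3 ± 11.9 (SD, n = 5) in the old and 83.2 ± 16.7 (SD, n = 8) in the old repopulated libraries. Its log2 fold changes ran from -0.12 in old repopulated versus old (edgeR adjusted p = 0.834) to 0.14 (0.145) in old versus young libraries (edgeR adjusted p = 0.644), and none passed. The level of Rb1 is uncertain. Its weighted length was 1278 to 3033 bases against 4656 for the full coding transcript, and of its short annotated transcripts Rb1-206 (408 bases) lies wholly within exons of Lpar6 on the opposite strand, while Rb1-202 shares 383 of its 411 bases with exons of Rcbtb2.

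Counted over the set, the 10 genes were called as follows. In old versus young libraries edgeR called 0 of 10, where 2.83% of all genes tested were called and 2.59% were called higher. At an unadjusted p under 0.05 there were 4 (Cdkn1a, Cdkn1b, Mdm2 and Ccng1, all higher), against 15.3% of all genes. None of the 10 was without overlap between these groups, against 2.21% of all genes. DESeq2 called 1 (Cdkn1a, against 5.73% of the 16914 genes to which it gave an adjusted p). Voom with sample quality weights called 2 (Cdkn1a and Cdkn1b, against 12.6% of all genes). The median log2 fold change of the 10 was 0.27 (0.265), against -0.01 over all genes. In young repopulated versus young libraries 2 of 10 were called, both higher (Cdkn2a and Ccng1), against 1.34% of all genes called and 0.827% called higher. Cdkn2a, Ccng1 and Cdkn1b, 3 of 10, did not overlap between groups and were higher, against 12.1% of all genes without overlap and 5.95% higher without overlap. The median was -0.01, against -0.04 (-0.035) over all genes. Only Cdkn2a, 1 of 10, was called in old repopulated versus old libraries (against 0.278%), and none of the 10 was without overlap (against 0.726%). The median there was 0.02, against 0.00 over all genes.

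Between old repopulated and young libraries 4 of 10 were called, all higher (Cdkn2a, Ccng1, Cdkn1a and Cdkn1b), where 15.2% of all genes were called and 9.28% were called higher. Cdkn2a alone was without overlap, and higher, where 2.24% of all genes were without overlap and 0.982% were higher without overlap. The median of the 10 was 0.37 (0.366), against -0.02 over all genes. Between old repopulated and young repopulated libraries edgeR called 0 of 10 and 0% of all genes, with 2 of 10 at an unadjusted p under 0.05 (Cdkn2d and Lmnb1, both higher), against 11.7% of all genes. DESeq2 called 0 of the 10 (against 0.433%) and voom 2 (against 17%). None of the 10 was without overlap there, against 2.25% of all genes. The difference of the repopulation effects between old and young mice gave 0 of 10 and 0% of all genes by edgeR, with 2 at an unadjusted p under 0.05 (Cdkn1b and Ccng1), against 8.24% of all genes. DESeq2 and voom called 0 of the 10 there, against 0.278% and 0.806% of all genes. These comparisons share libraries, so their calls are not independent of each other.

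The marker lists of other cells moved with age. In old versus young libraries 7 of 10 monocyte and neutrophil markers and 2 of 8 border macrophage markers rose by edgeR's test, with median log2 fold changes of 2.94 and 1.01. There 1 of 10 microglial markers fell, with a median of -0.61, where 2.83% of all genes were called and 2.59% were called higher. Against young libraries, the old repopulated ones had 7 of 10 and 5 of 8 higher by that test, with medians of 2.40 and 1.79, and 4 of 10 microglial markers fell, with a median of -0.77. Of all genes, 15.2% were called in that comparison and 9.28% were called higher. The part of these markers in the differences of Cdkn1a, Cdkn1b, Ccng1 and the other genes against young libraries was not tested. In young repopulated versus young libraries the medians of the microglial, monocyte and neutrophil, and border macrophage markers were -0.27, 1.23 and 1.24 (1.235), and 1 gene, of the border macrophage list, passed.

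Levels of some genes also differed between both runs of library numbers, mainly in libraries from old mice. In the higher run, numbers 12 to 15 are young, 16 to 18 old, 19 to 21 old repopulated and 22 to 24 young repopulated, so number and group cannot be told apart there. Lmnb1 measured 174 ± 58.8 CPM (SD, n = 3) in old and 221 ± 33.9 (SD, n = 3) in old repopulated libraries of the higher run, against 95.4 ± 34.6 (SD, n = 2) and 101 ± 26.8 (SD, n = 5) in the lower run. Mdm2 measured 124 ± 21.7 and 141 ± 13.2 CPM in those libraries of the higher run, against 85.4 ± 7.61 and 79.5 ± 7.13 in the lower run. Cdkn1a measured 368 ± 65.6 and 383 ± 53.7 CPM, against 257 ± 50.3 and 268 ± 65.6, and Cdkn2d measured 18.97 ± 5.16 and 29.3 ± 3.70 CPM, against 18.5 ± 5.36 and 17.01 ± 5.22. In young libraries Cdkn1a and Mdm2 were not higher in the higher run. Cdkn1a there measured 178 ± 35.7 CPM (SD, n = 4) in the higher and 237 ± 14.8 (SD, n = 3, from 14.75) in the lower run, and Mdm2 82.8 ± 5.44 and 84.6 ± 5.46. In the same young libraries Lmnb1 measured 111 ± 18.01 and 81.5 ± 17.7 CPM, and Cdkn2d 16.2 ± 1.54 and 13.3 ± 2.13. The summed monocyte and neutrophil markers of old and old repopulated libraries were 427 to 2168 and 814 to 2934 CPM in the higher run and 243 to 823 and 145 to 1293 CPM in the lower run. The summed microglial markers of old and old repopulated libraries were 10370 to 23770 and 9814 to 14530 CPM in the higher run. In the lower run they were 20040 to 26580 and 15170 to 30010 CPM. The summed border macrophage markers of old and old repopulated libraries were 1205 to 1963 and 1918 to 2847 CPM in the higher run (medians 1404 and 2680). In the lower run they were 1415 to 1778 and 634 to 2523 CPM (medians 1596 and 1145). The part of these marker lists in these values was not tested.

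**Figure D4:**
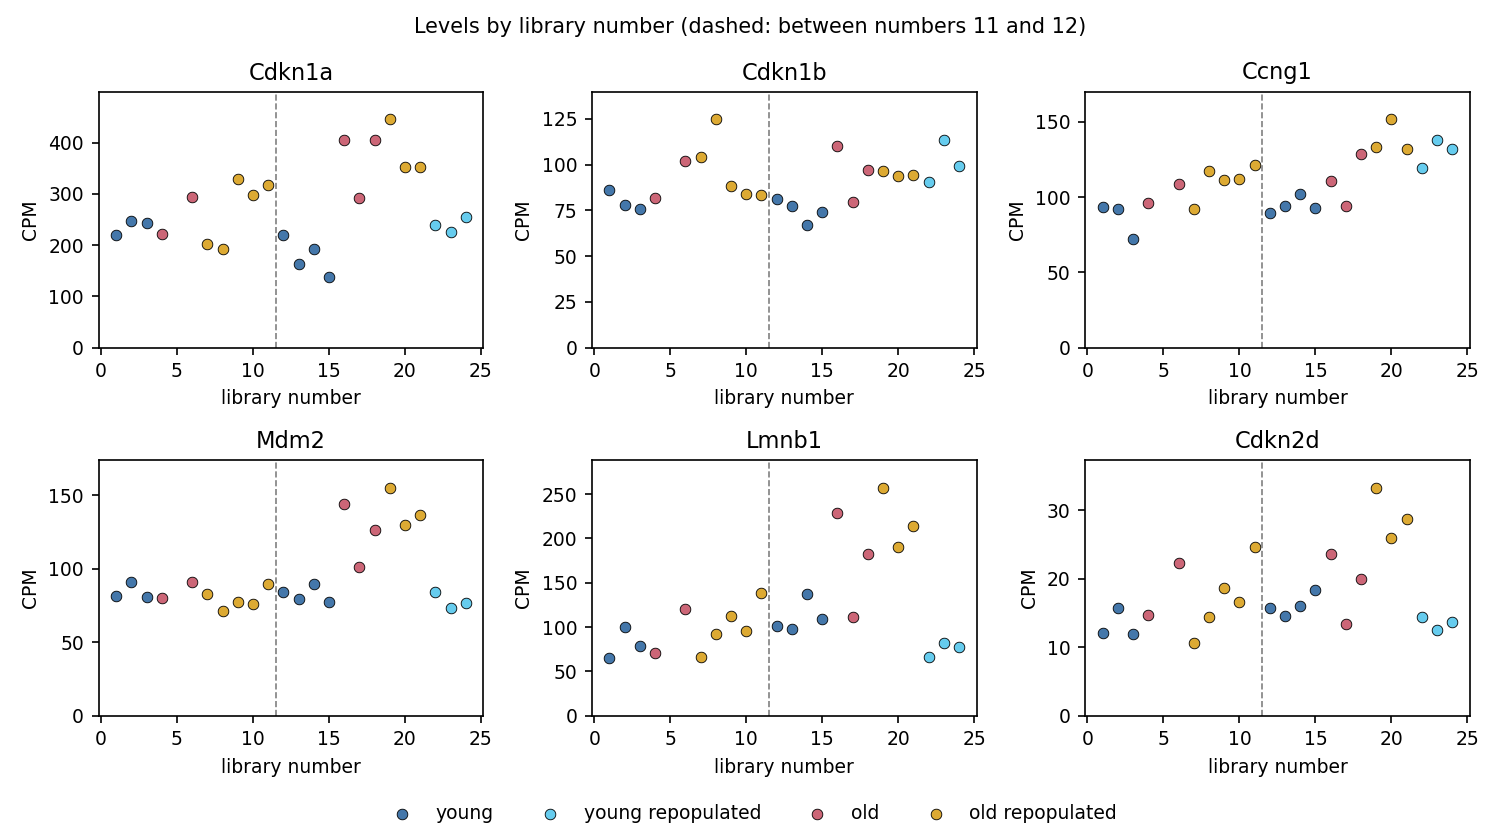
CPM of Cdkn1a, Cdkn1b, Ccng1, Mdm2, Lmnb1 and Cdkn2d against the library number in the sample titles (linear axes from 0); each point is a library, coloured by group, and the dashed line separates numbers 1 to 11 from 12 to 24. Mdm2 and Lmnb1 reach their highest values, 155 and 257 CPM, in library 19.

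Fitted within the higher run alone, edgeR called 4 of 10 in old versus young libraries: Cdkn1a (log2 fold change 1.06), Lmnb1 (0.65), Mdm2 (0.59) and Cdkn1b (0.36), where 15.7% of all genes were called. For old repopulated versus old libraries it called Cdkn2a (1.79, adjusted p = 0.00836) and Cdkn2d (0.63, adjusted p = 0.0321), where 12.7% were called. In young repopulated versus young libraries Cdkn2a (2.03, adjusted p = 0.00238), Ccng1 and Cdkn1b were called, where 9.31% were. Cdkn2d was the only gene of the set called for the difference of the repopulation effects (0.86, adjusted p = 0.0404, against 8.87% of all genes). Within the lower run, where at most 0.0107% of all genes were called in a comparison, none of the 10 passed. Cdkn2a there had log2 fold changes of 0.97 in old repopulated versus old and 1.41 in old repopulated versus young libraries, both in the direction found over all libraries. Cdkn1a there differed by 0.12 and Mdm2 by 0.01 between old and young libraries.

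Other genes of the pathways were taken from 7 lists with 107 genes in all, of which 105 were tested. Mmp3 and Csf2, with at most 38 and 3 counts in a library, were not. In old versus young libraries 3 of 105 were called, all higher, a share near that of all genes (2.83%, and 2.59% higher): Sesn2, a p53-induced stress sensor (log2 fold change 0.56 ± 0.12, SE, adjusted p = 0.0113 in edgeR), Ccnd2, which encodes cyclin D2 (3.06 ± 0.60, SE, adjusted p = 0.0077), and Vegfa, a secreted vascular growth factor (3.58 ± 0.73, SE, adjusted p = 0.01). Sesn2 and Vegfa did not pass without old replicate 3 (edgeR adjusted p = 0.0712 and 0.0524). With repopulation in old mice edgeR called 0 of 105, against 0.278% of all genes, and 11 had an unadjusted p under 0.05, against 10.4% of all genes. DESeq2 called 5 and voom 2, against 2.21% and 2.19%.

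In young repopulated versus young libraries 3 of 105 were called, against 1.34% of all genes. Rbl2, which encodes the RB relative p130, rose (0.40 ± 0.09, SE, adjusted p = 0.0227 in edgeR), as did the chemokine Ccl5 (2.52 ± 0.49, SE, adjusted p = 0.0117). Hmgb2, a chromatin protein that is lost from senescent cells, fell (-0.77 ± 0.18, SE, adjusted p = 0.0393 in edgeR), from 58.0 ± 11.04 CPM (SD, n = 7) to 34.1 ± 1.63 CPM (SD, n = 3). Rbl2 did not pass without any 1 of the 3 young repopulated replicates (edgeR adjusted p = 0.0711, 0.147 and 0.0694), Ccl5 without replicate 1 or 3 (0.0535 and 0.0918), and Hmgb2 in 9 of 23 fits that left out 1 library. All 18 genes of the proliferation list, among them Mki67 and Top2a, had negative log2 fold changes there, with a median of -0.86 against -0.04 (-0.035) over all genes. None of the 18 passed by edgeR, and 15 had an unadjusted p under 0.05, against 15.1% of all genes. Mki67, the gene of the Ki-67 antigen, measured 195 ± 68.8 CPM (SD, n = 7) in young and 106 ± 27.9 CPM (SD, n = 3) in young repopulated libraries, and these groups overlapped.

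In old repopulated versus old libraries the proliferation list had a median of 0.06, with 11 of 18 positive and 0 called (0 at an unadjusted p under 0.05). The difference of the repopulation effects, old minus young, was positive for 18 of 18, with a median of 0.86 and 0 called by edgeR (10 at an unadjusted p under 0.05, against 8.24% of all genes). The median over all genes was 0.04 (0.035) in that comparison. Old repopulated and young repopulated libraries differed in 0 of 105 pathway genes by edgeR, 3 by DESeq2 and 25 by voom, where 0%, 0.433% and 17% of all genes were called. At an unadjusted p under 0.05 there were 24, against 11.7% of all genes. All 18 proliferation genes had positive log2 fold changes there, with a median of 0.64 (0.635).

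Comparing old repopulated with young libraries, 20 of 105 were called, 17 higher and 3 lower. Of all genes 15.2% were called there, and 9.28% were called higher. Of 24 p53 targets, 5 rose and 1 fell. Those with the smallest adjusted p were Perp, which encodes a membrane protein of cell junctions (-1.76 ± 0.32, SE, adjusted p = 0.00139 in edgeR), the nuclease gene Aen (0.56 ± 0.14, SE, adjusted p = 0.0099) and the ribosomal protein gene Rps27l (0.79 ± 0.22, SE, adjusted p = 0.0177). Of 10 regulators of p53 none passed, with 0 at an unadjusted p under 0.05, and Mdm4, the partner of Mdm2, gave -0.23 ± 0.14 (SE, adjusted p = 0.271 in edgeR).

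Among 19 RB, E2F, cyclin and kinase genes, the D-type cyclins Ccnd2 (3.37 ± 0.57, SE, adjusted p = 0.000905 in edgeR) and Ccnd1 (0.78 ± 0.14, SE, adjusted p = 0.00136) rose and no gene fell. These 2 of 19 lay near the share of all genes called higher in that comparison (9.28%, of 15.2% called). The same shares stand beside the counts of the lists below. D-type cyclins activate the kinases that INK4 proteins inhibit. Of 9 nuclear envelope and chromatin genes, Sun1, Lbr and Lmna rose (0.32, 0.41 (0.415) and 1.07 (1.075), edgeR adjusted p = 0.0204, 0.0349 and 0.0447), of which Lbr did not pass in 7 and Lmna in 15 of 23 fits that left out 1 library. Of 23 tested genes of the secretory phenotype 7 rose and 1 fell, led by Vegfa (3.48 ± 0.69, SE, adjusted p = 0.00257 in edgeR), Ccl7 (3.15 ± 0.74, SE, adjusted p = 0.00718) and Cxcl1 (2.18 ± 0.59, SE, adjusted p = 0.0155). The count of 20 was 10, 13 and 11 when old repopulated replicate 6, 7 or 8 was left out, 13 and 12 when it was young replicate 4 or 7, and 35 when it was old repopulated replicate 1. The share of all genes called in those fits was not computed, so it is not known whether calls over all genes moved alike.

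Compared per transcript length, Cdkn1a was highest in each group, at 191 ± 38.1 TPM (SD, n = 7) in young and 310.2 ± 70.3 TPM (SD, n = 5) in old libraries. The order of the other genes shifted between groups. Lmnb1, for example, had rank 3 in young, 6 in young repopulated and 2 in old and old repopulated libraries. In young libraries Rb1 (72.7 ± 15.1 TPM), Lmnb1 (60.9 ± 15.9, from 60.85), Mdm2 (59.7 ± 5.19), Cdkn1b (54.6 ± 3.81), Trp53 (52.8 ± 8.07) and Ccng1 (45.0 ± 5.13) followed. Neighbours in that run of genes overlapped, but every young library of Rb1 (lowest 51.7 TPM) and Mdm2 (lowest 53.02 TPM) was above the highest of Ccng1 (51.3 TPM, from 51.35). The place of Rb1 is uncertain, because its TPM rests on a weighted length of 1278 to 3033 bases against 4656 for the full coding transcript. Cdkn2c (22.1 ± 5.59 TPM) and Cdkn2d (20.3 ± 3.87) were next, and Cdkn2a was lowest at 4.78 ± 1.14 TPM. In young repopulated libraries Cdkn2a reached 17.8 ± 3.85 TPM (SD, n = 3), as high as Cdkn2d (17.1 ± 1.02) and Cdkn2c (15.7 ± 1.84), and the 3 did not differ beyond their spread.

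For the 4 genes called in these comparisons, the genes with the most similar log2 CPM across the 23 libraries were identified among 13620 genes by Pearson r, as a description with no test. For Cdkn2a they included Pxdc1 (r = 0.879) and Pilra (0.865). For Ccng1 they were Ate1 (0.893), Ap2b1 (0.89) and Ralgapa2 (0.884). For Cdkn1a they were Nr1h3 (0.914), Sgms2 (0.909) and Vegfa (0.907), the last of which is on the secretory list above. For Cdkn1b they were Ptpn22 (0.836), Tle1 (0.825) and Eif4e3 (0.817). The 23 libraries share groups and runs of library numbers, which enter each of these values.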

How the data were processed

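Poly(A) RNA of 23 microglial libraries was sequenced from 2.4 to 147 ng of RNA with a stranded kit as single reads of 50 nt, per the labels' protocols. The submitters' processing notes name FastQC 0.11.5, STAR, RSEM, limma and GRCm38, without their roles. Per the file headers, the authors deposited RSEM gene results: expected counts (estimates, not always whole; 87.26% were whole within 1e-06), TPM (scaled for depth and length, as the authors deposited them) and gene length in bases. Expected counts were rounded and tested in R 4.3.3 with edgeR 4.0.16: filterByExpr, TMM, all 23 libraries, 1 coefficient per group, quasi-likelihood tests, Benjamini-Hochberg adjustment over 18736 genes, threshold 0.05. The fit was tested on simulated data.

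The alternatives were RLE factors, no filter, DESeq2 1.42.0, voom with sample quality weights (limma 3.58.1), only the groups compared, the run of library numbers as a term or each run alone, and leaving out each library. Shares of all genes called are of the genes with an adjusted p in each fit. With DESeq2 these were 14013 to 18723 genes by comparison, so its shares are not on the same base as those of edgeR and voom. Cdkn2a transcript shares were solved from the deposited length; their exact two-sided permutation tests (SciPy 1.17.1), adjusted over 15 comparisons, and their alternatives were chosen after seeing the data. Log CPM used a prior count of 2. No pair of libraries agreed within sampling noise (smallest chi-square per degree of freedom 17.8). The genes and lists were chosen with earlier results of these data known. Named from each list were up to 3 called genes per comparison with the smallest adjusted p, and Cdkn2b, Mtap, Mdm4, Mki67 and Top2a as related genes chosen after their values were seen. Coordinates are from GENCODE M21, where 9 of the 10 genes carry the same identifier version as the files (Cdkn1a differs), and promoters from RefSeq. For each called gene the 3 genes with the highest Pearson r were to be named, and 1 of these is not reported here.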

Additional observations from a re-analysis of the deposited data

Results flagged for a closer look

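In a search for libraries that stand far from the rest of their group, 40 groups of values were examined and 4 held such a library. Chance alone gives about 1 in 20 for values without ties. That rate does not apply to the shares of Ccng1 and Cdkn2a transcripts, where several libraries tie at 100% or 0%. Young replicate 3, the library with the fewest detected genes, was far from the other 6 young libraries in 3 of them: Ccng1 measured 72.3 CPM (72.35), the share of Ccng1 transcripts assigned to the coding transcript was 88.3%, where the other 6 gave 100%, and the share of Cdkn2a transcripts assigned to the INK4a form was 41.2%. Old replicate 1 had 30.9% (30.85) of its Cdkn2c transcripts assigned to the shorter coding transcript of 1106 bases, below the other 4 old libraries (47.7% to 51.4%).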

How the results depend on the processing

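No paired analysis was possible because each number in the sample titles belongs to 1 library. The replicate numbers used here only follow the order of the samples within a group and pair nothing. Of 67 log2 fold changes reported for single genes, the direction and the side of the threshold were the same in 67 with RLE factors, 64 with DESeq2, 63 with no filter, 60 with the run of library numbers as a term and 58 with voom. The same held for 57 of the 63 that could be fitted with only the groups compared, for 19 of 45 within numbers 1 to 11 and for 47 of 67 within 12 to 24.

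Of the 10 genes, the number called in old versus young libraries (0) was 1 with DESeq2, 2 with voom, 1 with only the groups compared and 4 within numbers 12 to 24. In old repopulated versus old libraries (1) it was 0 with only the groups compared and 0 within 1 to 11, where 0% of all genes were called in each. It was 2 within 12 to 24, where 12.7% of all genes were called. For old repopulated versus young libraries (4) it was 7 with voom, 0 within 1 to 11 and 8 within 12 to 24. For old repopulated versus young repopulated libraries (0) it was 2 with voom, 3 with the run as a term and 4 within 12 to 24, and for the difference of the repopulation effects (0) it was 1 within 12 to 24.

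Of the 105 pathway genes, the number called in old versus young libraries (3) was 5 with DESeq2, 11 with voom, 5 with only the groups compared, 0 within 1 to 11 and 25 within 12 to 24. With repopulation in old mice (0) it was 5 with DESeq2, 2 with voom and 23 within 12 to 24, and in young mice (3) it was 12 with DESeq2, 37 with voom, 23 with only the groups compared and 29 within 12 to 24. For old repopulated versus young libraries (20) it was 40 with voom, 31 with the run as a term, 0 within 1 to 11 and 49 within 12 to 24. For old repopulated versus young repopulated libraries (0) it was 3 with DESeq2, 25 with voom, 6 with the run as a term and 70 within 12 to 24. For the difference of the effects (0) it was 1 with voom and 37 within 12 to 24. The calls over all genes moved as well. In the order of these 6 comparisons, DESeq2 called 5.73%, 2.21%, 4.52%, 21.8%, 0.433% and 0.278% of the 14013 to 18723 genes to which it gave an adjusted p. Voom called 12.6%, 2.19%, 13.7%, 35.5%, 17% and 0.806% of 18736 genes, and the fit within 12 to 24 15.7%, 12.7%, 9.31%, 41.1%, 36.3% and 8.87% of 17187 genes. With the run as a term, 24.5% were called in old repopulated versus young and 4.53% in old repopulated versus young repopulated libraries. With only the groups compared it was 4.09% in old versus young, 7.5% in young repopulated versus young and 0% in old repopulated versus old libraries. The cause of these shifts was not tested.

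Several log2 fold changes, none of them called over all libraries, turned sign. Rb1 in young repopulated versus young libraries was -0.001 with voom and -0.064 with the run as a term. Within 1 to 11, Cdkn2c was 0.285 in old versus young and -0.409 in old repopulated versus old libraries, Cdkn1a 0.064 and Cdkn2d -0.114 in old repopulated versus old, and Mdm2 -0.086 and Rb1 -0.091 in old repopulated versus young libraries. Within 12 to 24, Cdkn2a was -0.327 in old versus young, and Cdkn1a 0.059, Cdkn1b -0.012, Mdm2 0.185 and Rb1 0.068 in old repopulated versus old libraries.

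Leaving out each library in turn, the number called of the 10 genes was 0 to 1 in old versus young, 0 to 1 in old repopulated versus old and 1 to 2 in young repopulated versus young libraries. The pathway genes called were 1 to 6, 0 to 2 and 0 to 6 in the same order and 10 to 35 in old repopulated versus young libraries. The first was 6 without old replicate 1, 5 without old repopulated replicate 1 and 1 without old replicate 3. The second was 2 without old repopulated replicate 1. The third was 0, 1 and 0 without young repopulated replicates 1, 2 and 3, 5 without old replicate 3, and 6 and 5 without old repopulated replicates 1 and 2. For these fits with 1 library left out, the share of all genes called was not computed. Signs turned for old repopulated versus old in Cdkn1a (-0.168 to 0.037), Cdkn1b (-0.032 to 0.092), Cdkn2c (-0.148 to 0.144), Lmnb1 (-0.138 to 0.268), Mdm2 (-0.192 to 0.041) and Trp53 (-0.111 to 0.028), for old versus young in Cdkn2a (-0.224 to 0.256), and for old repopulated versus young in Rb1 (-0.021 to 0.079).

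For the Cdkn2a transcripts, the ARF form differed by 2.74 (2.741) to 3.97 TPM in old repopulated versus old, 2.78 (2.777) to 3.83 (3.826) versus young, -1.72 (-1.719) to 0.745 versus young repopulated and -0.7096 to 0.4723 in old versus young libraries when 1 library was left out. The INK4a share differed by 25.15 to 35.07 points in old repopulated versus old, -19.1 to 1.218 versus young repopulated and -1.286 to 10.29 in old versus young libraries. Within 1 to 11 and within 12 to 24, the INK4a level was higher by 4.482 and 3.829 TPM in old repopulated than in old libraries and by 4.81 and 4.333 TPM than in young ones. Its share was higher by 32.19 and 24.08 points, and by 29.12 and 34.48 points. None passed, and exact permutation within a run allows no unadjusted p below 0.0952 and 0.1 for the first pair and 0.0357 and 0.0571 for the second. In old versus young libraries within 1 to 11 the share differed by -3.07 points and the ARF form by 1.795 TPM. Counts of 42 to 500 reads per library limit every Cdkn2a value.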
